A study of Mus musculus with 36 samples.

Results

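The comparison described here is that of CD4 T cells without TRIM28 cultured in the Th1 condition (KO Th1) with the same kind of cells cultured in the Th0 condition (KO Th0), stimulation without a named lineage. Its members are the 3 samples of KO Th1 and the 3 of KO Th0, 6 of the 36 expression arrays of the study, and they were found by their titles. The cells were naive CD4 T cells of the mouse, enriched magnetically and sorted by flow cytometry, from mice labelled Trim28-KO or from their wild-type littermates (WT). Cells of all 4 groups used here, KO Th0, KO Th1, WT Th0 and WT Th1, had been activated for 72 h through CD3, by antibody fixed to the plate, and through CD28, by antibody in solution. The 3 WT Th1 and 3 WT Th0 samples served as the reference for the same culture step with TRIM28 present. The labels do not name the cytokines or blocking antibodies that make up the Th1 condition, the Cre or promoter behind the deletion, or the age and sex of the mice. They also do not say whether the numbered samples of a group came from separate mice. The p-values therefore stand for the spread among the deposited samples, which may be technical.

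Th1 cells are the helper lineage that makes interferon-gamma, the cytokine that activates macrophages against intracellular microbes. In the textbook account, IL-12 acts through STAT4, the transcription factor T-bet (encoded by Tbx21) is raised, and T-bet then turns on Ifng, the IL-12 and IL-18 receptor chains and the chemokine receptor Cxcr3. TRIM28 (KAP1) is brought to DNA by KRAB zinc-finger proteins and represses transcription there, among others through the histone methyltransferase SETDB1.

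The deposited values are log2 intensities, and a change is the difference of 2 group means on that scale, so that a change of 1 is a doubling. It is given with its standard error (SE) and the Benjamini-Hochberg adjusted p of limma's moderated test over 13082 genes, in a fit to all 36 samples, and a gene was called at an adjusted p under 0.05. The values of 3 samples are given in the order of their numbers, 1, 2 and 3, and levels are compared between samples and not between genes, whose probe sets differ in brightness. Trim28 itself read 6.06, 6.04 and 5.68 in KO Th0 and 6.23, 6.14 and 5.51 in KO Th1, against 9.84, 9.67 and 9.77 in WT Th0 and 9.74, 9.76 and 9.64 in WT Th1. All 6 KO samples lay far below all 6 WT samples, as labelled, and Trim28 did not differ between KO Th1 and KO Th0 beyond the spread of the samples (change 0.03, SE 0.16, adjusted p = 0.943). Which exons its probe set reads was not given in the sources used here.

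All 12 CD4 T cell markers of a fixed list that were on the array lay above the table median of 5.26 in these cells, with Cd3e at a mean of 12.3 in both KO groups and Cd4 at 11.4 in KO Th0 and 11.6 in KO Th1. Cd8a lay at 4.99 and 4.90, below that median, and Cd8b1 above it, at 7.16 and 7.48, with no called change. Of the markers of other cells, 1 of 10 B cell genes (Ighm, 12.3 in KO Th0 and 12.1 in KO Th1), 4 of 14 myeloid genes, 0 of 3 erythroid genes and 2 of 5 markers of NK or gamma-delta T cells had a mean above the median. The log2 of the summed level lay between 12.2 and 12.5 in KO Th0 and between 12.1 and 12.3 in KO Th1 for B cells and between 9.82 and 10.1 in KO Th0 and between 9.88 and 10.1 in KO Th1 for myeloid cells. The 4 myeloid genes were Cst3 (9.06 in KO Th0 and 9.15 in KO Th1), Cd68 (7.42 and 6.92), Fcer1g (5.45 and 5.26) and Tyrobp (5.22 and 5.40). The B cell genes Cd79a and Ms4a1 and the myeloid genes Lyz2 and Itgam were among those below the median. Of the CD4 T cell markers 1 rose, Zap70, by 0.30 (SE 0.08, adjusted p = 0.013, but between 0.0569 and 0.102 without KO Th0 sample 1, KO Th1 sample 2, KO Th0 sample 3 or KO Th1 sample 3). No marker of the other cells was called without the replicate block described next, and with it 1 was, Ebf1 (mean 4.41 in KO Th0 and 5.12 in KO Th1, adjusted p = 0.0701, with the block 0.0258).

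The KO samples numbered 1 stood apart from those numbered 2 and 3 in both conditions. Mki67, a marker of dividing cells, read 8.61, 10.86 and 10.64 in KO Th0 and 9.0, 10.94 and 10.93 in KO Th1. Gzmb, which encodes the granule protease granzyme B, read 5.84, 9.14 and 9.62 in KO Th0 and 6.07, 10.02 and 10.08 in KO Th1. Both genes were lower in the KO samples numbered 1 than in those numbered 2 and 3. For Mki67 all KO samples lay below the WT samples, which were between 11.4 and 11.8. KO Th1 sample 1 had the lowest mean correlation with its replicates of the samples of these 4 groups, 0.976. Same-numbered Th0 and Th1 samples deviated from their group means together, so a fit that pairs them by number (the replicate block) was run too, as was one without both KO samples numbered 1. 

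In the cells without TRIM28, 439 genes rose from Th0 to Th1 (3.36% of the genes tested) and 672 fell (5.14%). With the replicate block the counts were 511 (3.91%) and 771 (5.89%), and 429 and 655 genes were called in both fits. Changes of at least 2-fold were more often increases, with 150 genes higher and 43 lower. The 3 samples of one condition lay wholly above the 3 of the other for 394 of the 439 genes that rose and for 618 of the 672 that fell. Genes called on the same values tend to lie apart in this way, so these counts are no further support for the calls. The share over all genes tested was not counted. In the WT cells 711 genes rose (5.43%) and 706 fell (5.4%). Without both KO samples numbered 1 the counts were 313 and 325, without KO Th0 sample 1 alone 263 and 342, and without KO Th1 sample 2 alone 258 and 289. A fit of the 6 KO samples alone called 136 and 98 genes, and the same fit with the replicate block called 617 and 713. Of the 97 called genes picked by fixed rules for naming, 54 were not called in the fit of the KO samples alone. Of the called genes, 215 that rose and 206 that fell were called in each of the 6 fits that left out 1 KO sample.

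**Figure D1:**
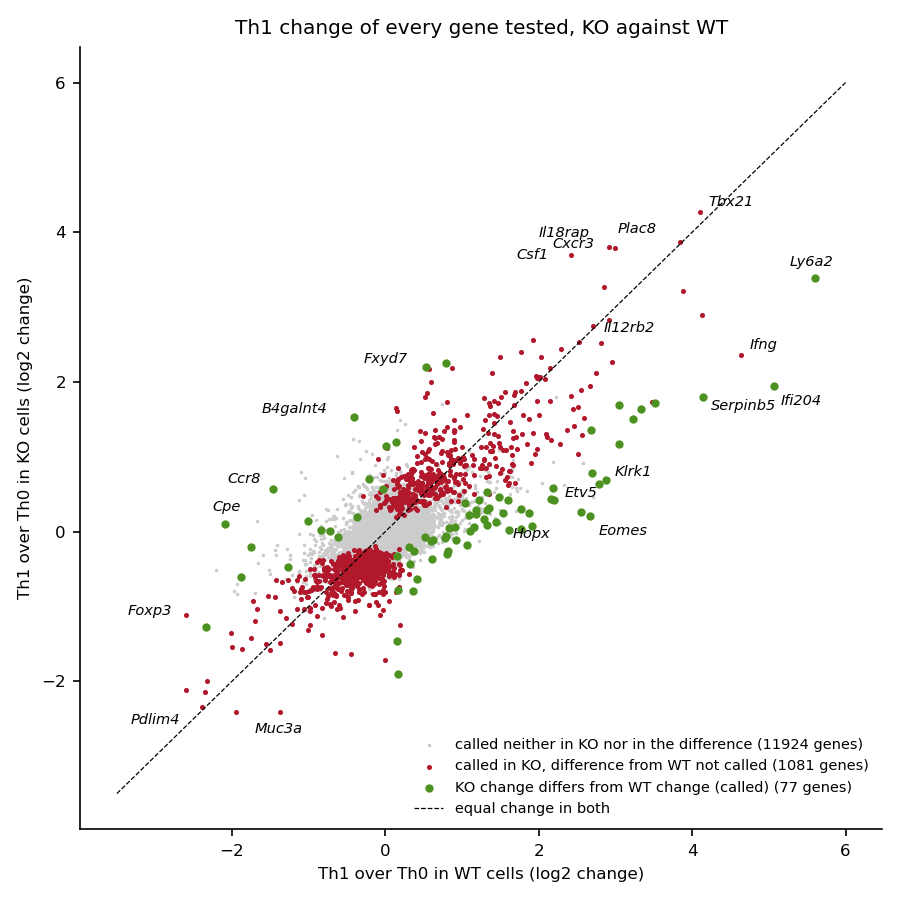
Change from Th0 to Th1 of each of the 13082 genes tested, in WT cells (horizontal axis) and in KO cells (vertical axis), both as log2 changes of the means of 3 samples. Red points were called in the KO comparison, green points are the 77 genes whose KO change differed from their WT change, and the dashed line marks equal change. Tbx21 and Plac8 lie close to the line, Cxcr3, Il18rap and Csf1 above it, and Eomes, Etv5 and Ifi204 far below it.

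The largest rise among the genes tested was that of the Th1 regulator itself. Tbx21 read 5.53, 5.99 and 6.48 in KO Th0 and 9.82, 10.38 and 10.62 in KO Th1. Every KO Th1 sample lay more than 3 log2 units above every KO Th0 sample. The change of 4.27 (SE 0.24, adjusted p = 3.82e-13) is a 19.3-fold rise, beside 4.11 (SE 0.24) in WT cells. The difference of the 2 changes was 0.16 (SE 0.34, adjusted p = 0.992). Runx3, the factor that works with T-bet at Ifng, rose by 0.72 (SE 0.12, adjusted p = 1.05e-04), from 8.82, 9.14 and 9.02 to 9.57, 9.79 and 9.78, again with no overlap. Stat4, which carries the IL-12 signal, was high in both conditions, with 12.02, 11.97 and 11.97 in KO Th0 and 12.24, 12.09 and 11.97 in KO Th1, and its change of 0.11 (SE 0.16) was not called. Of the 9 Th1 transcription factors tested, Tbx21 and Runx3 were the 2 that rose in KO cells, beside 3.36% of all genes. The list median was 0.39 (0.19 without KO Th1 sample 3), beside -0.04 over all genes. In WT cells 5 of the 9 rose, the further ones being Eomes, Hlx and Bhlhe40, whose KO changes were 0.21, 0.39 and 0.40.

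Chains of the receptors for IL-12 and IL-18 rose as well. Il12rb2, the signalling chain of the IL-12 receptor, read 7.93, 9.35 and 8.91 in KO Th0 and 11.29, 11.46 and 11.68 in KO Th1, a change of 2.75 (SE 0.31, adjusted p = 5.94e-07). Il18rap, the accessory chain of the IL-18 receptor, read 5.79, 7.26 and 7.28 and then 10.51, 10.68 and 10.55, a change of 3.80 (SE 0.30, adjusted p = 6.69e-10). In both genes the KO Th1 samples lay close together and the lowest KO Th0 sample was number 1. Il18r1, the ligand-binding chain, rose by 1.13 (SE 0.22, adjusted p = 0.00135). Il12rb1, the chain shared with the IL-23 receptor, rose by 0.77 (SE 0.24, adjusted p = 0.0398), with samples that overlapped between the groups (7.0, 7.72 and 8.03 against 7.60, 8.63 and 8.82). That call was not kept in all fits, since its adjusted p was between 0.0531 and 0.301 without KO Th0 sample 1, KO Th0 sample 2, KO Th1 sample 2 or KO Th1 sample 3. A chain of the interferon-gamma receptor went the other way. Ifngr2, which is needed for its signal, fell from 9.92, 9.79 and 9.87 to 8.61, 8.19 and 8.94, by 1.28 (SE 0.16, adjusted p = 4.39e-06), while Ifngr1 changed by 0.15 (SE 0.15) and was not called. In WT cells Ifngr2 fell by 2.34 (SE 0.16), and the 3 Th1 samples read 7.05, 7.58 and 7.04, all below the KO Th1 samples. The difference of the changes was 1.06 (SE 0.23, adjusted p = 0.0245, but between 0.052 and 0.107 without WT Th0 sample 1, WT Th1 sample 1, KO Th1 sample 1, KO Th0 sample 2, WT Th0 sample 3, WT Th1 sample 3 or KO Th1 sample 3, and 0.103 without both KO samples numbered 1).

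Chemokine receptors were among the clearest changes. Cxcr3, the receptor for the interferon-induced chemokines, read 5.18, 6.19 and 5.85 in KO Th0 and 9.74, 9.68 and 9.17 in KO Th1, a 13.8-fold rise (change 3.79, SE 0.17, adjusted p = 7.51e-15). Cxcr6 read 6.86, 7.79 and 8.05 and then 10.85, 10.79 and 10.86 (change 3.27, SE 0.32). Cxcr1, a receptor of the CXC family best known from neutrophils, rose by 2.89 (SE 0.23) from 5.0, 4.85 and 4.63 to 7.94, 7.90 and 7.31. The 3 receptors also rose in WT cells, by 3.0, 2.85 and 4.12, and for none of them was the difference called (adjusted p = 0.216, 0.972 and 0.0947). Cxcr6 and Cxcr1 were not particular to Th1 cells. Cxcr6 averaged 10.84 in KO Th1, 10.48 in KO Th2 and 9.74 in KO Th17 cells. Cxcr1 averaged 7.72 in KO Th1 and 8.19 in KO Th17 cells. Of 20 chemokines and chemokine receptors tested, Cxcr3 and Cxcr6 were the 2 called, while 3.36% of all genes rose and 5.14% fell. With the replicate block 6 rose, the further ones being Ccl5, Ccl4, Ccr4 and Ccr8, and 5 rose without KO Th1 sample 1 or KO Th0 sample 3. The chemokine RANTES, encoded by Ccl5, changed by 1.80 (SE 0.61, adjusted p = 0.0641, with the block 0.0204).

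Effector genes followed. Nkg7, a granule protein of Th1 and killer cells, read 7.12, 9.50 and 9.54 in KO Th0 and 10.84, 11.41 and 11.51 in KO Th1 (change 2.53, SE 0.38, adjusted p = 4.78e-05, and 0.114 in the fit of the 6 KO samples alone). Sample 1 was the lowest of each group. Fasl, the death ligand, rose by 1.74 (SE 0.24) from 6.69, 6.87 and 6.33 to 8.12, 8.23 and 8.76. The growth factor genes Csf1 and Csf2 rose by 3.69 (SE 0.29, adjusted p = 6.69e-10) and 2.34 (SE 0.32, adjusted p = 8.35e-06). Csf1 encodes M-CSF and read 5.28, 5.55 and 6.43 in KO Th0 and 9.55, 9.44 and 9.35 in KO Th1, so the Th1 samples were nearly equal. Csf2 encodes GM-CSF and read 4.13, 4.37 and 4.71 and then 6.06, 6.40 and 7.76, highest in sample 3. Neither growth factor gene was particular to Th1 cells. Csf1 averaged 9.45 in KO Th1 and 9.12 in KO Th2 cells, and Csf2 6.74 in KO Th1 and 8.74 in KO Th17 cells. In all, 9 of the 22 Th1 cytokine, receptor and effector genes tested rose in KO cells and 1, Ifngr2, fell, beside 3.36% and 5.14% of all genes. The list median was 0.93. The median was 0.37 without KO Th1 sample 3, 0.49 without KO Th0 sample 1 and 0.60 without KO Th0 sample 2. Of the 9, 8 were called in each of the fits that left out 1 KO sample, the exception being Il12rb1. In WT cells 13 rose and 1 fell, with a median of 1.25.

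Ifng, the cytokine that defines the lineage, rose unevenly. It read 5.36, 5.26 and 6.86 in KO Th0 and 6.35, 8.02 and 10.20 in KO Th1, so that KO Th1 sample 1 lay below KO Th0 sample 3 and the groups overlapped. Within the numbered pairs the rises were 0.98, 2.76 and 3.34. The change of 2.36 (SE 0.51) had an adjusted p of 0.00296, and 0.268 in the fit of the 6 KO samples alone. In WT cells Ifng went from 5.44, 6.37 and 5.38 to 9.84, 10.57 and 10.69, a change of 4.64 (SE 0.51). The KO change was smaller by 2.28 (SE 0.72), a difference with an adjusted p of 0.219 without and 0.00129 with the replicate block. Without both KO samples numbered 1 the difference was -1.58 (adjusted p = 0.535). In such bulk samples, fewer cells that make a transcript and less of it per cell cannot be told apart. Il21 also rose, by 0.89 (SE 0.28, adjusted p = 0.0472), but its adjusted p was between 0.0881 and 0.176 without KO Th0 sample 1, KO Th0 sample 2, KO Th1 sample 2, KO Th0 sample 3 or KO Th1 sample 3, and 0.0895 without both samples numbered 1. Il2 changed by 1.01 (SE 0.62) and Tnf by -0.27 (SE 0.27), neither of them called. Of 23 cytokines of activated T cells tested, Csf1, Csf2, Ifng and Il21 were the 4 that rose, beside 3.36% of all genes.

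**Figure D2:**
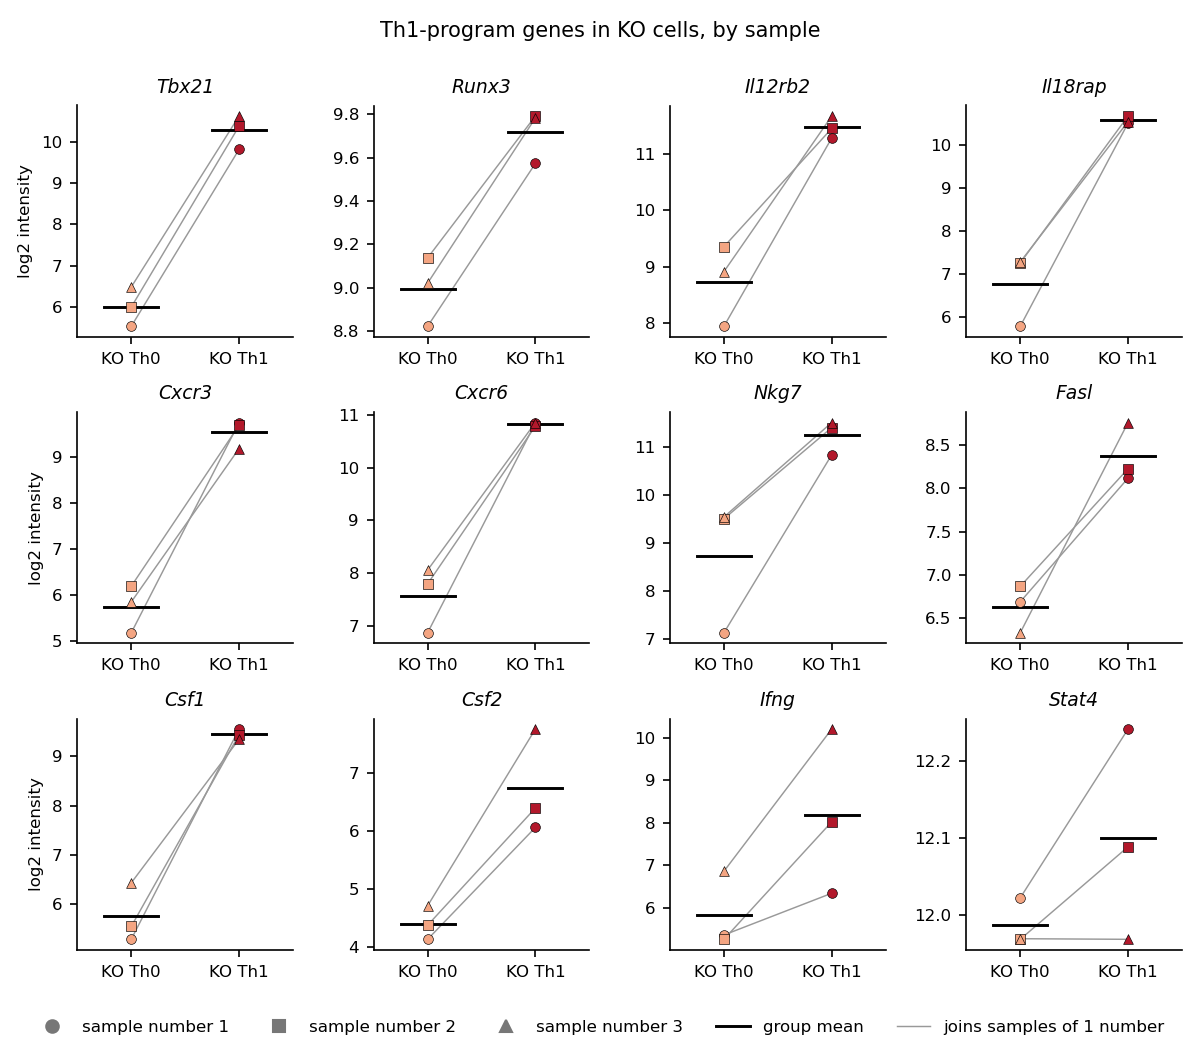
Log2 intensity of 12 genes read for the Th1 program in the 3 KO Th0 and 3 KO Th1 samples. Il12rb2, Cxcr6, Csf1 and Csf2 among them were also high in KO Th2 or KO Th17 cells. Each point is a sample, its shape gives the sample number, thin lines join samples of 1 number and black bars are group means. For Tbx21 the KO Th1 samples sit at 9.82, 10.38 and 10.62, all above the KO Th0 samples, whereas for Ifng KO Th1 sample 1 (6.35) lies below KO Th0 sample 3 (6.86).

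Promoters, from 250 bases before to 50 after the annotated start, were read for 3 short motifs on both strands. These were the STAT-type site TTCNNNGAA, the core of the interferon-stimulated response element (GAAA, any 2 bases, GAAA) and the T-box core GGTGTGA. The windows are those of RefSeq on GRCm38.p6, 5′ to 3′ on the gene's strand, and capitals mark the matches. The 6 shown are receptor, cytokine and effector genes of the Th1 program, 2 interferon-induced genes, and Eomes, whose change differed between KO and WT cells. All 6 hold a match, and other windows that were read held none.
Il12rb2 (chr6:67376139-67376438, minus strand): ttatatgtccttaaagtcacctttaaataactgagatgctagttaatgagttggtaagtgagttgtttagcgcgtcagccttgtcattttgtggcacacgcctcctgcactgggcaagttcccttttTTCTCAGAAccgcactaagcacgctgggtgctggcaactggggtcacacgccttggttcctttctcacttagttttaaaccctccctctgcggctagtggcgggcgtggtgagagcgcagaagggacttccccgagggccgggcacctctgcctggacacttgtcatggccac
Ifng (chr10:118440796-118441095, plus strand): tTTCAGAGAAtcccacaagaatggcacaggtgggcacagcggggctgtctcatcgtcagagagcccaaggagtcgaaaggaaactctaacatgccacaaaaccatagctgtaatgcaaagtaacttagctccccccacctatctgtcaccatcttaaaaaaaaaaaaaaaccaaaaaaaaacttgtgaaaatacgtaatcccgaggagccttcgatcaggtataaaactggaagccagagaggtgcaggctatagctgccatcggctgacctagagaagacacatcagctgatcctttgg
Nkg7 (chr7:43436888-43437187, plus strand): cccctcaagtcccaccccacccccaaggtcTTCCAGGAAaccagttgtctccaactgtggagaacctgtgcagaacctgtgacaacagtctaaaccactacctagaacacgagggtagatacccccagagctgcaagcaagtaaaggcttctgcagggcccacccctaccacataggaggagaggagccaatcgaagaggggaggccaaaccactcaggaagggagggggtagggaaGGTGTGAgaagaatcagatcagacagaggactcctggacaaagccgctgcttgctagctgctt
Gbp5 (chr3:142496684-142496983, plus strand): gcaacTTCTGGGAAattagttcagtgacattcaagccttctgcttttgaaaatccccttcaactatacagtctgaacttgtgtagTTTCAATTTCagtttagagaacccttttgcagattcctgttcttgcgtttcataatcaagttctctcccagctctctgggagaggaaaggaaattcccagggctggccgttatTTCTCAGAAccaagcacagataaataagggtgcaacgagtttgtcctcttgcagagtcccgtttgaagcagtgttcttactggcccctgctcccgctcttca
Trim30a (chr7:104465144-104465443, minus strand): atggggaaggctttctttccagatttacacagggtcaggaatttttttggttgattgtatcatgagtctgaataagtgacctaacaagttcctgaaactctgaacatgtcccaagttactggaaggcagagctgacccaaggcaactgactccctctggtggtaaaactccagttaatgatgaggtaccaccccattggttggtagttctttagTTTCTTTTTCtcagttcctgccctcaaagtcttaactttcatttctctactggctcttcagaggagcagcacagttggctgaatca
Eomes (chr9:118477939-118478238, plus strand): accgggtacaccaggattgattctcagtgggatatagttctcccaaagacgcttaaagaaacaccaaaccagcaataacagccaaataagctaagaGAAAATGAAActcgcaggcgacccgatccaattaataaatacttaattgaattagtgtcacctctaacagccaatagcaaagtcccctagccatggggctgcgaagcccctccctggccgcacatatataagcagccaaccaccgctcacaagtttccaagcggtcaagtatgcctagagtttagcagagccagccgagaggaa

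The Il12rb2 window held 1 STAT-type match, which starts at position -123 from the gene's start, and the Ifng window held 1 at -249. Nkg7 had a STAT-type match at -220 and a T-box core at -13. Gbp5 held 2 STAT-type matches, at -245 and -52, and 1 response-element core, at -165, while the first listed Trim30a window had such a core at -36 and Eomes had one at -154. Of windows not shown, Stat2 had a response-element core at -222 and Icam1 a STAT-type match at -42. The first listed Irf8 window had 2 STAT-type matches, at -171 and -153. Foxp3, which fell, had a STAT-type match at -139 in its later listed window and no match in the first. The windows of Tbx21, Cxcr3, Il18rap, Csf1, Etv5, Hopx and Klrk1 held none of the 3, which says only that these letters are not in these windows. Of the 439 genes that rose, 344 matched an entry, with 451 windows, and 6.65% of those held the response-element core and 11.1% the STAT-type site. The shares were 2.4% and 6.21% of the 708 windows of genes that fell, 3.11% and 6.98% of the 12857 windows of all genes tested, and 3.44% and 8.3% of all 32851 windows in the table. The T-box core was in 3.55%, 3.53%, 3.52% and 3.98% of the same sets. Of the 60 windows of 45 of the 59 genes whose KO change was called lower than their WT change, Eomes among them, 1.67% held the response-element core, 5% the STAT-type site and 8.33% the T-box core, which are 1, 3 and 5 windows. A match is a description of the sequence and not evidence of binding.

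Other genes at the top of the comparison belong to no single pathway. Plac8, a small cysteine-rich protein, read 4.98, 6.06 and 5.35 in KO Th0 and 8.88, 10.12 and 9.01 in KO Th1 (change 3.87, SE 0.31), beside 3.84 in WT cells. Cysltr2, a receptor for cysteinyl leukotrienes, rose by 3.21 (SE 0.32), and Fes, a cytoplasmic tyrosine kinase, by 2.51 (SE 0.35). Ctla2a, a cysteine protease inhibitor, rose by 2.44 (SE 0.29) and Ano7, an anoctamin, by 2.39 (SE 0.22). Furin, the protease that cuts proproteins in the secretory pathway, had the smallest error of these, with 9.32, 8.97 and 9.05 in KO Th0 and 11.42, 11.33 and 11.38 in KO Th1 (change 2.26, SE 0.13, adjusted p = 3.82e-13). Cysltr2, Fes, Ctla2a and Furin were not particular to Th1 cells. Cysltr2 averaged 8.63 in KO Th1 and 10.75 in KO Th17 cells, and Fes 8.22 in KO Th1 and 9.03 in KO Treg cells. Ctla2a averaged 8.86 in KO Th1, 10.45 in KO Th2 and 10.04 in KO Th17 cells, and Furin 11.38 in both KO Th1 and KO Th17 cells. Ly6a2, of the Ly6 surface antigen family, read 5.49, 5.46 and 5.88 and then 7.49, 10.27 and 9.23, lowest in sample 1 (change 3.39, SE 0.35, adjusted p = 1.55e-07). Of the 12 genes with the largest rises whose samples did not overlap, 2 were not called in the fit of the 6 KO samples alone, Ly6a2 (adjusted p = 0.0531) and Nkg7.

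Interferon-induced genes were more often called higher than lower in KO cells, with counts that depended on which samples were in the fit. Of 34 interferon-gamma induced genes tested, 11 rose and 0 fell. Over all genes tested, 3.36% rose and 5.14% fell. At an unadjusted p under 0.05 in limma, 17 of the 34 rose and 0 fell. At that unadjusted p 939 of all 13082 genes rose and 1871 fell, the background for such counts of KO changes below. The changes of 33 of the 34 were above 0, beside 5389 of all 13082 genes. The list median was 0.44, beside -0.04 over all genes. Irf8, an interferon-induced transcription factor, rose by 2.33 (SE 0.39, adjusted p = 1.57e-04, and 0.161 in the fit of the 6 KO samples alone), from 5.02, 6.47 and 7.51 to 7.66, 8.91 and 9.42. It was not particular to Th1 cells, with means of 8.66 in KO Th1 and 9.34 in KO Th17 cells. Ly6c2, a surface antigen of activated T cells, rose by 2.12 (SE 0.41, adjusted p = 8.97e-04). Gbp5, a guanylate-binding protein of cell-autonomous defence, read 7.37, 8.11 and 8.65 and then 9.25, 9.20 and 9.71 (change 1.34, SE 0.31, adjusted p = 0.00588, and 0.0752 without KO Th0 sample 1). The GTPase gene Iigp1 read 5.89, 10.32 and 10.76 in KO Th0 and 10.91, 10.90 and 11.70 in KO Th1. Its KO Th0 sample 1 lay more than 4 log2 units below the other 2, and its change of 2.18 (SE 0.68, adjusted p = 0.0442) was 0.76 (adjusted p = 0.377) without both samples numbered 1. Its adjusted p was between 0.0534 and 0.446 without KO Th0 sample 1, KO Th1 sample 1, KO Th1 sample 2 or KO Th1 sample 3. The further called members were Gbp10, Igtp, Gbp3, Irgm1, H2-Ab1, Nlrc5 and Tapbp, with changes between 0.31 and 1.08.

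Irf8 and Ly6c2 were the 2 of the 11 that were called in each of the fits that left out 1 KO sample. The number called was 2 without KO Th0 sample 1, 3 without KO Th1 sample 2, 4 without KO Th1 sample 3, 7 without KO Th1 sample 1, 11 without KO Th0 sample 3 and 12 without KO Th0 sample 2. It was 3 without both samples numbered 1, with a median of 0.24, and the median was 0.22 without KO Th0 sample 1 alone. In WT cells 7 rose, with a median of 0.27. The part of the low Mki67 and Gzmb of the samples numbered 1 in these counts was not tested.

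Genes stimulated by type I interferon gave a similar picture. Of 36 tested, 7 rose and 0 fell, beside 3.36% and 5.14% of all genes. At an unadjusted p under 0.05 in limma, 15 rose and 0 fell, beside 939 and 1871 of all 13082 genes. A change above 0 was seen in 35 of the 36, beside 5389 of all 13082 genes, and the list median was 0.47. Usp18, which brakes signalling at the type I interferon receptor, rose by 1.35 (SE 0.26, adjusted p = 0.0011), from 9.85, 11.06 and 10.25 to 11.75, 11.88 and 11.57, and was called in each of the fits that left out 1 KO sample. Trim30a read 8.16, 8.62 and 8.57 and then 9.18, 9.24 and 9.36 (change 0.82, SE 0.20, adjusted p = 0.00786), but its adjusted p was 0.0732 without KO Th0 sample 1. Stat2 and Irf9, transcription factors of the type I interferon response, rose by 0.67 (adjusted p = 0.0315) and 0.48 (adjusted p = 0.0418), and Ifit1bl1, Phf11b and Zbp1 by 1.21, 0.85 and 0.77. The number called was 1 without KO Th0 sample 1, 3 without KO Th1 sample 2, 4 without KO Th1 sample 3, 5 without KO Th1 sample 1, 6 without KO Th0 sample 3 and 15 without KO Th0 sample 2. It was 1 without both samples numbered 1, with a median of 0.28, and the median was 0.18 without KO Th0 sample 1 alone. In WT cells 0 rose and 1 fell, with a median of -0.17. At an unadjusted p under 0.05 in limma, 4 rose and 6 fell there, beside 1252 and 1581 of all 13082 genes. The KO change was above the WT change for 35 of the 36 genes, beside 5981 of all 13082. The difference was called for 0 of the 36. At an unadjusted p under 0.05, 11 differences were above and 0 below, beside 330 and 656 of all 13082 genes.

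**Figure D3:**
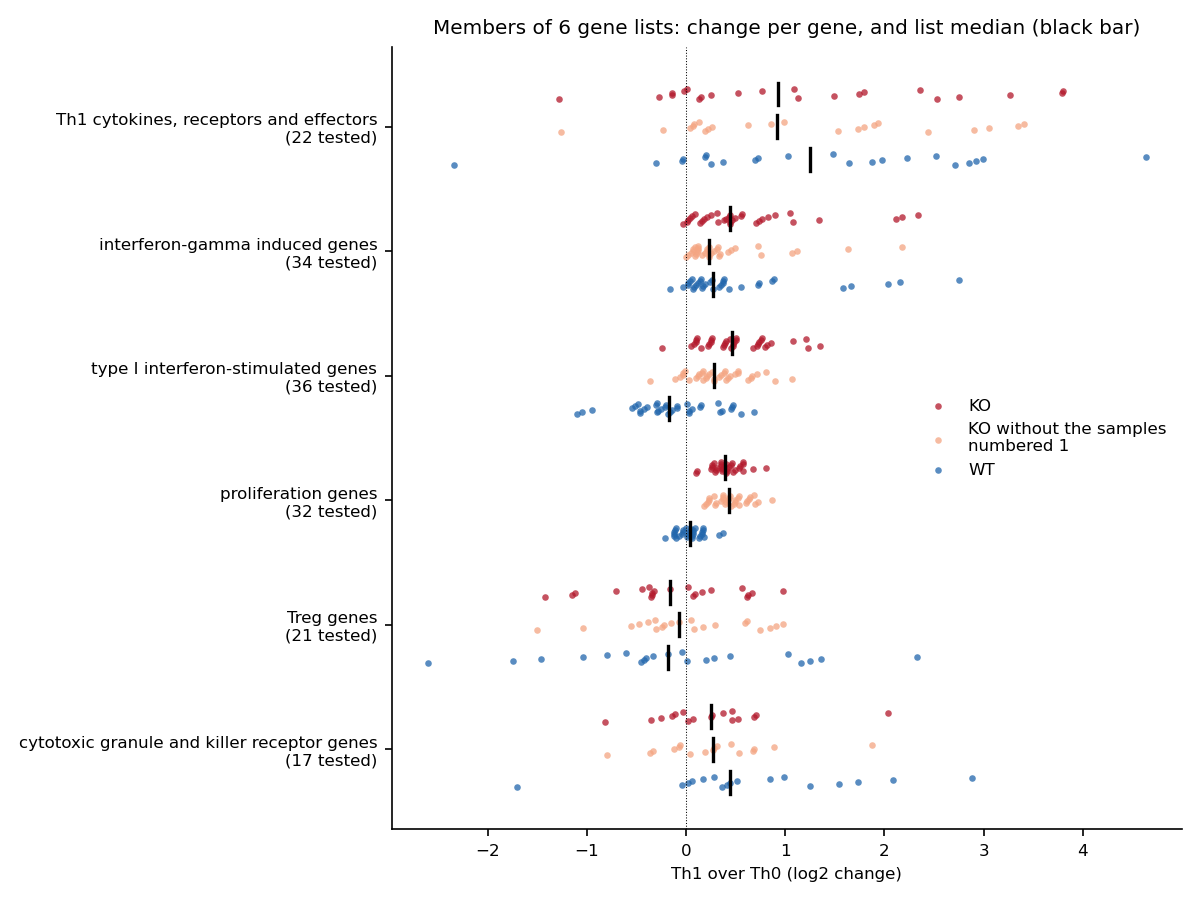
Log2 change from Th0 to Th1 of each tested member of 6 gene lists, in KO cells, in KO cells without the samples numbered 1, and in WT cells. Each point is a gene and black bars are list medians, which for the type I interferon-stimulated genes are 0.47, 0.28 and -0.17.

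Among the genes that fell, the largest changes were in named genes of varied function. Muc3a, a membrane mucin, read 7.80, 7.56 and 8.39 in KO Th0 and 5.77, 4.73 and 6.02 in KO Th1, and fell by 2.41 (SE 0.31, adjusted p = 4.29e-06). Pdlim4, a PDZ and LIM domain protein of the actin skeleton, read 8.14, 7.84 and 7.63 and then 5.36, 5.74 and 5.47 and fell by 2.35 (SE 0.30). Drc1, a component of ciliary dynein regulation, fell by 2.15 (SE 0.31) and Stc1, the hormone stanniocalcin, by 2.12 (SE 0.31). In these 4 genes no KO Th1 sample reached the lowest KO Th0 sample. Nav1, a neuron navigator protein, fell by 1.99 (SE 0.31) and Sorcs2, a sortilin-family receptor, by 1.62 (SE 0.20). Upk1b, Igfbp7, Nrep, She, Fsd1l and Ly6d completed the 12 largest falls among called genes whose samples did not overlap, with changes between -1.71 and -1.47. The WT changes of Pdlim4, Drc1, Stc1 and Nav1 were -2.39, -2.35, -2.60 and -2.33, and none of these differences was called (adjusted p between 0.944 and 0.992). Upk1b and Ly6d had WT changes of -0.01 and 0.15, Upk1b from WT means below the table median (4.34 and 4.33). Ly6d read 8.46, 8.46 and 7.02 in KO Th0 and 6.27, 6.41 and 6.86 in KO Th1, while the WT samples lay between 5.33 and 5.72, and the difference of its changes was -1.62 (SE 0.37, adjusted p = 0.0362). The adjusted p of that difference was between 0.0534 and 0.142 without WT Th0 sample 1, WT Th1 sample 1, KO Th0 sample 1, KO Th1 sample 1, KO Th0 sample 2, KO Th1 sample 2, WT Th0 sample 2, WT Th1 sample 2, WT Th0 sample 3 or WT Th1 sample 3, and 0.36 without both KO samples numbered 1. The difference for Upk1b was -1.70 (SE 0.46, adjusted p = 0.0986). In the fit of the 6 KO samples alone, Stc1, Nav1, Upk1b, Igfbp7, Nrep, Fsd1l and Ly6d were not called. The call of Igfbp7 (adjusted p = 0.0161) was also lost in fits that left out 1 sample, with between 0.0611 and 0.138 without KO Th1 sample 1, KO Th0 sample 2 or KO Th0 sample 3.

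Further large falls with the replicate block were in genes whose 3 numbered pairs all fell. Gpr83, an orphan receptor of regulatory T cells, read 7.56, 7.30 and 8.83 in KO Th0 and 6.31, 5.88 and 7.24 in KO Th1, so that each pair fell by more than 1 while the levels differed between numbers (change -1.42, SE 0.38, adjusted p = 0.016, and between 0.133 and 0.146 without KO Th1 sample 2 or KO Th0 sample 3). Man1c1, a mannosidase of the Golgi, fell by 1.32 (SE 0.17) and Plaur, the urokinase receptor, by 1.38 (SE 0.25). Stxbp6 fell by 1.36 (adjusted p = 0.0333, with the block 7.78e-04, and between 0.0704 and 0.304 without KO Th1 sample 1, KO Th1 sample 2 or KO Th0 sample 3). Atp1b1, a subunit of the sodium pump, fell by 1.29 (adjusted p = 0.0274, and between 0.0508 and 0.134 without KO Th0 sample 1, KO Th1 sample 2 or KO Th1 sample 3).

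Some genes of the regulatory lineage were called in KO cells, none of them in every fit that left out 1 KO sample. Foxp3, which specifies regulatory T cells, was high in KO Th0, at 11.56, 11.13 and 11.72, and read 10.28, 9.79 and 10.997 in KO Th1. The groups did not overlap, and Foxp3 fell by 1.12 (SE 0.35, adjusted p = 0.0452). The adjusted p of Foxp3 was between 0.0826 and 0.264 without KO Th0 sample 1, KO Th1 sample 1, KO Th1 sample 2 or KO Th0 sample 3. In WT cells Foxp3 fell by 2.60 (SE 0.35), from 10.70, 11.23 and 10.78 to 8.17, 8.73 and 8.0, and the difference of 1.49 (SE 0.50) was not called (adjusted p = 0.283, with the block 0.188). Of 21 Treg genes tested, 3 fell (Foxp3, Gpr83 and Ikzf4) and 1, Entpd1, rose (3 and 2 with the replicate block), beside 5.14% and 3.36% of all genes. In WT cells 4 rose and 4 fell. Of the 21 changes in KO cells 10 were above 0, beside 5389 of all 13082 genes. The adjusted p of Entpd1, an ectonucleotidase, was 0.0111, but between 0.0591 and 0.135 without KO Th0 sample 1, KO Th1 sample 2 or KO Th1 sample 3, and 3 genes of the list rose without KO Th1 sample 1. The number that fell was 0 without KO Th1 sample 2, without KO Th0 sample 3 and without both samples numbered 1. It was 1 without either sample numbered 1, 3 without KO Th0 sample 2 and 6 without KO Th1 sample 3. Klf2, which keeps T cells in circulation, fell by 0.80 (SE 0.17, adjusted p = 0.00284) from 9.73, 9.45 and 9.48 to 8.94, 8.71 and 8.62. Klf3 fell by 0.66 (SE 0.16, adjusted p = 0.00803, and 0.0514 without KO Th1 sample 2). These were the 2 of 23 naive and quiescence genes that fell in KO cells (1 without KO Th1 sample 2), beside 5.14% of all genes. In WT cells 7 fell.

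**Figure D4:**
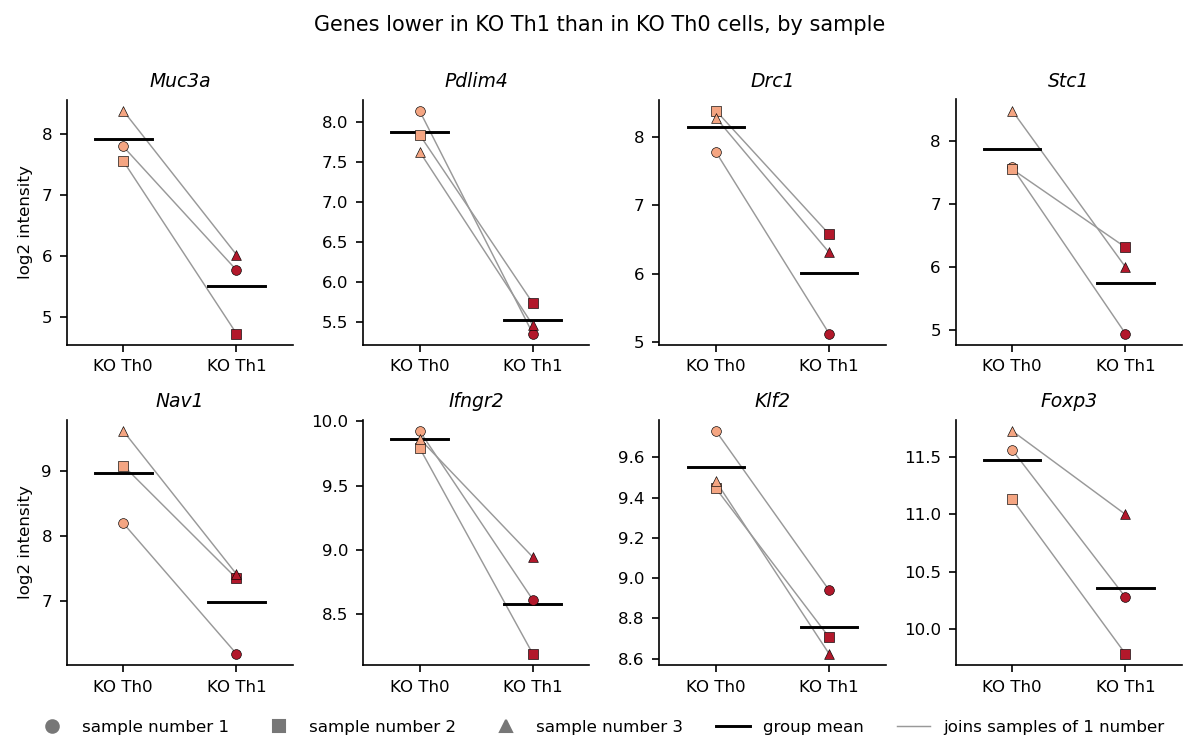
Log2 intensity of 8 genes that were lower in the KO Th1 than in the KO Th0 samples, drawn as points per sample with shapes for the sample number, lines between samples of 1 number and bars for group means. Ifngr2 goes from 9.92, 9.79 and 9.87 to 8.61, 8.19 and 8.94, and the Foxp3 samples from 11.56, 11.13 and 11.72 to 10.28, 9.79 and 10.997.

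Genes of the other helper lineages were read next. Gata3, the Th2 regulator, changed by -0.31 (SE 0.17), Il4 by -0.25 (SE 0.19), Il13 by 0.34 (SE 0.32) and Il17a by -0.24 (SE 0.19), and none of the 4 was called. Of 17 Th2 genes tested, 1 rose, Ecm1, by 1.04 (SE 0.19), and 3 did with the replicate block, which added Ccr4 and Ccr8, and 4 did without KO Th1 sample 1. All genes were called higher at 3.36%. Of 17 Th17 genes, Cxcr6, Csf2 and Il21 rose and Il6ra, the IL-6 receptor, fell by 0.68 (SE 0.13, adjusted p = 0.00135). Il6st, the signalling chain shared by the IL-6 and IL-27 receptors, rose by 0.53 (SE 0.11, adjusted p = 0.00282). Among 14 follicular helper genes 3 rose, led by the ATP-gated channel P2rx7, which rose by 1.72 (SE 0.18) from 7.42, 7.87 and 7.66 to 9.34, 9.37 and 9.41.

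Of 17 granule and killer receptor genes tested, 1 rose in KO cells, beside 3.36% of all genes. With the replicate block 2 rose and 1 fell, 3 rose without KO Th1 sample 1, and 6 rose in WT cells. The one was Ctsw, the protease cathepsin W, which read 8.64, 9.43 and 9.37 in KO Th0 and 11.02, 11.25 and 11.29 in KO Th1 (change 2.04, SE 0.21, WT change 2.08). Gzmb changed by 0.53 (SE 0.70), and by 1.85 without KO Th1 sample 1 (adjusted p = 0.03), and Prf1, which encodes perforin, by -0.36 (SE 0.15). Klrk1, the activating receptor NKG2D, and Klrc1, its relative NKG2A, changed by 0.69 and 0.25 in KO cells and by 2.88 and 1.54 in WT cells. Both had KO means below the table median, so these KO changes lie between levels under the filter.

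Receptors, adhesion molecules and transcription factors of activated T cells gave a few clear changes. The counts of list members below stand beside 3.36% of all genes that rose and 5.14% that fell. The TNF receptor Tnfrsf1b rose by 1.07 (SE 0.13), the costimulatory receptor Icos by 0.70 (SE 0.13) and Tnfrsf25 by 0.51 (SE 0.11). With Fasl these were the 4 of 21 costimulatory and TNF superfamily genes that rose, and all 4 were called in each of the fits that left out 1 KO sample, while 2 others fell without KO Th1 sample 3. The inhibitory receptor Lag3 rose by 0.91 (SE 0.27, adjusted p = 0.0346, and between 0.0623 and 0.196 without KO Th0 sample 1, KO Th0 sample 2, KO Th0 sample 3 or KO Th1 sample 3). Of 20 integrin and adhesion genes, Icam1 rose by 1.68 (SE 0.26), Itgal by 0.57 (SE 0.08) and Itgb2 by 0.23 (SE 0.07, adjusted p = 0.0309, but between 0.0557 and 0.167 without KO Th0 sample 1, KO Th1 sample 2, KO Th0 sample 3 or KO Th1 sample 3). Itga6 and Itgb7 fell, by 0.67 and 0.50. Itgal encodes the partner of ICAM-1 and read 10.73, 10.91 and 10.71 in KO Th0 and 11.42, 11.33 and 11.30 in KO Th1. Among 23 effector transcription factors 5 rose and Klf2 fell, and 3 rose without KO Th0 sample 1, KO Th0 sample 2 or KO Th1 sample 2. Besides Irf8 these were Id2, an inhibitor of E proteins (1.03, SE 0.12), Hif1a, the hypoxia factor (0.77, SE 0.10), Ikzf3 and Prdm1. Ikzf3, of the Ikaros family, rose by 0.56 (SE 0.18, adjusted p = 0.0434, with the block 0.0573, and between 0.0661 and 0.201 without KO Th0 sample 1, KO Th0 sample 2, KO Th1 sample 2, KO Th0 sample 3 or KO Th1 sample 3). Prdm1, which encodes Blimp-1, rose by 0.52 (SE 0.15, adjusted p = 0.0241, and between 0.0511 and 0.0893 without KO Th0 sample 1, KO Th1 sample 1, KO Th0 sample 2 or KO Th1 sample 2). The AP-1 members Jun and Fosl2 rose by 1.33 (SE 0.18) and 1.18 (SE 0.21), the 2 of 17 immediate early genes that did (4 without KO Th1 sample 1). Of 15 SOCS genes and other cytokine brakes, Usp18 and Socs3 rose, while Socs2 and Cish, targets of STAT5, fell by 0.87 and 0.80. Of these 4, Usp18 was called in each of the fits that left out 1 KO sample. The adjusted p was between 0.0539 and 0.149 without KO Th0 sample 1, KO Th0 sample 2 or KO Th1 sample 3 for Socs3, between 0.119 and 0.368 without KO Th1 sample 1, KO Th0 sample 2 or KO Th0 sample 3 for Socs2 and between 0.0962 and 0.131 without KO Th0 sample 1 or KO Th1 sample 1 for Cish. Of 18 genes of IL-12 and interferon JAK-STAT signalling 6 rose and 1, Ifngr2, fell, and the number that rose was 2 without KO Th0 sample 1 or KO Th1 sample 2 and 3 without KO Th1 sample 3. Of 21 genes of the TGF-beta pathway 2 fell, Smad7 and Smurf2, beside 5.14% of all genes. Both encode feedback inhibitors and fell by 0.40 (adjusted p = 0.0179, but between 0.0891 and 0.148 without KO Th0 sample 1, KO Th1 sample 2, KO Th0 sample 3 or KO Th1 sample 3) and 0.33 (adjusted p = 0.0245, but between 0.0598 and 0.171 without KO Th0 sample 1, KO Th1 sample 2, KO Th0 sample 3 or KO Th1 sample 3). Of 18 targets of p53, 0 were called (0 higher and 1 lower at an unadjusted p under 0.05 in limma).

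Of 23 glycolysis and hypoxia-response genes, 7 rose and 2 fell in KO cells, beside 3.36% and 5.14% of all genes, and 11 rose and 1 fell in WT cells. Egln3, the oxygen-sensing prolyl hydroxylase, read 7.75, 8.27 and 7.52 in KO Th0 and 9.79, 10.27 and 10.05 in KO Th1 and rose by 2.19 (SE 0.30), beside 2.14 in WT cells. Pgam1, Pfkp, Aldoc, Slc16a1, Pgk1 and Pkm rose by between 0.39 and 0.78, and Ndrg1 and Pdk1 fell by 0.80 and 0.63 (adjusted p of Pdk1 0.0111, and between 0.0707 and 0.103 without KO Th0 sample 1, KO Th1 sample 2 or KO Th1 sample 3). The count that rose was 4 without KO Th0 sample 1 and without KO Th1 sample 2, and 12 without KO Th1 sample 1. Of 27 sterol and fatty acid synthesis genes, 5 rose (Fads2, Scd1, Lss, Insig1 and Srebf1), beside 3.36% of all genes. The number that rose was 13 without KO Th1 sample 1, 3 without KO Th0 sample 3, and 2 without KO Th0 sample 1, KO Th1 sample 2 or KO Th1 sample 3. Fads2, a fatty acid desaturase, read 5.39, 7.47 and 7.33 in KO Th0 and 6.98, 9.46 and 9.75 in KO Th1, higher within each number and lowest in the samples numbered 1.

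Proliferation genes were not called in KO cells, with 0 of 32 called and 4 higher and 0 lower at an unadjusted p under 0.05 in limma. All 32 changes were above 0, beside 5389 of all 13082 genes, with a median of 0.39 beside 0.04 in WT cells. With the replicate block Mcm3 and Mcm4 were called, 20 were called without KO Th1 sample 1, and the median was -0.08 without KO Th0 sample 1, 0.06 without KO Th1 sample 2, 0.19 without KO Th1 sample 3, 0.80 without KO Th0 sample 2 and 1.05 without KO Th1 sample 1. Of 22 genes of TRIM28 and its partners, Morc3, Hdac2, Ehmt1 and Ehmt2 fell, beside 5.14% of all genes, with changes between -0.46 and -0.32. Morc3, by 0.46 (SE 0.10, adjusted p = 0.00438), was called in each of the fits that left out 1 KO sample. The adjusted p was between 0.114 and 0.204 without KO Th1 sample 1, KO Th0 sample 2, KO Th1 sample 2 or KO Th0 sample 3 for Hdac2, 0.0609 without KO Th0 sample 1 for Ehmt1 and between 0.0505 and 0.107 without KO Th0 sample 1, KO Th1 sample 1, KO Th0 sample 2 or KO Th1 sample 3 for Ehmt2. Of 294 Zfp genes tested, which encode zinc-finger proteins of many kinds, 20 fell and 0 rose, beside 672 and 439 of all 13082 genes. At an unadjusted p under 0.05 in limma, 59 fell and 4 rose, beside 1871 and 939 of all 13082 genes. In WT cells 16 fell and 4 rose with the adjusted p. The largest falls were those of Zfp931, by 1.06 (SE 0.20), and Zfp974, by 0.69 (SE 0.16, adjusted p = 0.00712, and 0.0522 without KO Th1 sample 2). The number of Zfp genes that fell was 29 without KO Th1 sample 1, between 7 and 14 without KO Th0 sample 1, KO Th0 sample 3, KO Th1 sample 2 or KO Th1 sample 3, and 10 without both samples numbered 1.

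The same step in WT cells called many of the same genes. Of the 439 genes that rose in KO cells 66.3% also rose in WT cells, and these 291 genes were 40.9% of those that rose in WT cells. Of the genes that fell, 262 did so in both, 39% of the KO and 37.1% of the WT genes. No gene rose in KO and fell in WT cells, and Nelfe, a subunit of the factor that pauses RNA polymerase II, fell in KO and rose in WT cells. Across the 13082 genes the KO and WT changes, which share no sample, had a Pearson correlation of 0.696, and genes are not independent replicates. The 50 genes that rose most in WT cells had a median change of 2.68 there and 1.73 in KO cells, where 37 were called and 40 had the smaller change. The 50 that fell most in WT cells had medians of -1.56 and -0.81, with 27 called in KO cells. These genes were picked for their WT values, so the medians are a description with no test.

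The difference of the 2 changes was called for 77 genes, 18 with the KO change above the WT change (0.138% of the genes tested) and 59 below it (0.451%). With the replicate block these were 24 (0.183%) and 73 (0.558%), and 74 genes were called both ways. Of the 59, 38 rose in WT cells and were not called in KO cells, 14 rose in both, 6 fell in KO cells and were not called in WT cells, and 1 was Nelfe. Of the 18, 9 fell in WT cells and were not called in KO cells, 6 rose in KO cells and were not called in WT cells, 2 fell in both and 1 rose in both. The counts were 8 and 26 without both KO samples numbered 1, 10 and 41 without KO Th0 sample 1, 7 and 38 without WT Th0 sample 3, and 7 and 30 without WT Th1 sample 3. A fit of the 4 groups alone called 4 and 15. Of the genes named below, Eomes, Etv5, Hopx, Fxyd7 and Cpe were called there. Of the 77, 6 and 26 were called in each of the 12 fits that left out 1 of these samples.

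The largest named differences were in genes that rose in WT cells. Eomes, the T-box relative of T-bet, read 4.78, 5.13 and 5.51 in KO Th0 and 4.93, 5.67 and 5.45 in KO Th1, against 5.03, 5.53 and 5.13 in WT Th0 and 8.13, 7.79 and 7.79 in WT Th1. Only the WT Th1 samples were high, and the other 3 groups overlapped. The KO change of 0.21 (SE 0.26) differed from the WT change of 2.67 (SE 0.26) by -2.46 (SE 0.36, adjusted p = 4.37e-04). Etv5, an ETS factor induced by ERK signalling, read 5.01, 4.91 and 5.08 in KO Th0 and 4.89, 5.44 and 5.48 in KO Th1, and went from 5.40, 5.75 and 5.66 to 7.92, 8.14 and 8.40 in WT cells, with a difference of -2.28 (SE 0.28, adjusted p = 6.22e-05). Again the WT Th1 samples stood alone. Of the 12 ERK feedback genes tested it was the one with a called difference, and 0 of the 12 were called in KO cells (2 higher and 1 lower at an unadjusted p under 0.05). Klrk1 read 3.26, 3.40 and 3.33 in KO Th0 and 3.54, 3.85 and 4.66 in KO Th1 and 5.56, 6.61 and 6.72 in WT Th1. All groups but WT Th1 lay below the table median for Klrk1, so it passed the filter through the group where it is high, and its KO change lies between levels under the filter. Its KO change of 0.69 had an adjusted p of 0.0631 without and 0.0283 with the replicate block, and the difference was -2.19 (SE 0.33, adjusted p = 4.70e-04). Hopx, a homeodomain protein of long-lived Th1 cells, went from 7.74, 7.76 and 7.70 to 7.98, 7.89 and 8.08 in KO cells and from 6.72, 6.93 and 7.23 to 8.79, 8.43 and 9.28 in WT cells. The difference for Hopx was -1.62 (SE 0.23, adjusted p = 3.17e-04), and its KO Th0 level was already 0.77 above that of WT Th0, so the smaller change starts from a higher level. Serpinb5, the serpin maspin, rose in both, by 1.79 in KO and 4.14 in WT cells (difference -2.35, SE 0.40, adjusted p = 0.00255).

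Ifi204, a p200 family DNA sensor, read 3.28, 3.24 and 3.18 in KO Th0 and 3.56, 6.0 and 5.96 in KO Th1, so that sample 1 stayed near the Th0 level, against 9.45, 8.49 and 8.95 in WT Th1. WT Th1 was the one group of the 12 with a mean above the table median, so Ifi204 too passed the filter through its high group, and both of its KO means lie under the filter. Its KO change was 1.95 (SE 0.45, adjusted p = 0.00528, and 0.0668 without KO Th1 sample 2). The difference of -3.12 (SE 0.63, adjusted p = 0.0118) was -2.29 (adjusted p = 0.0641) without both KO samples numbered 1. In the other direction, Fxyd7, a regulator of the sodium pump, rose from 5.28, 5.01 and 4.86 to 7.25, 7.48 and 7.01 in KO cells and was 5.70, 5.40 and 5.60 in WT Th1 (difference 1.66, SE 0.28, adjusted p = 0.00255). B4galnt4, a glycosyltransferase, rose by 1.53 in KO cells from a low Th0 level (5.66, 6.34 and 5.91) to 7.89, 7.66 and 6.94, and changed by -0.42 in WT cells from 7.50, 7.12 and 7.32 (difference 1.94, SE 0.32, adjusted p = 0.00249). Cpe, carboxypeptidase E, fell by 2.09 in WT cells from 7.10, 7.49 and 7.67, while all 6 KO samples lay between 4.28 and 4.65, below the table median. Ctnnd2, a delta-catenin, fell by 1.75 in WT cells from the one group above that median, WT Th0, with KO samples between 4.51 and 5.23. The differences were 2.20 (SE 0.31) for Cpe and 1.55 (SE 0.21) for Ctnnd2, from KO changes of 0.10 and -0.20 at these low levels. Ccr8, a chemokine receptor of Th2 and regulatory cells, fell by 1.46 in WT cells and changed by 0.57 in KO cells, where each numbered pair rose (adjusted p = 0.337, with the block 0.0318). The difference for Ccr8 was 2.03 (SE 0.47, adjusted p = 0.0361, with the block 7.00e-05). It was not called in every fit, since its adjusted p was between 0.0508 and 0.148 without KO Th0 sample 1, KO Th0 sample 2, KO Th1 sample 2, WT Th0 sample 2, WT Th0 sample 3, WT Th1 sample 3 or KO Th1 sample 3.

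**Figure D5:**
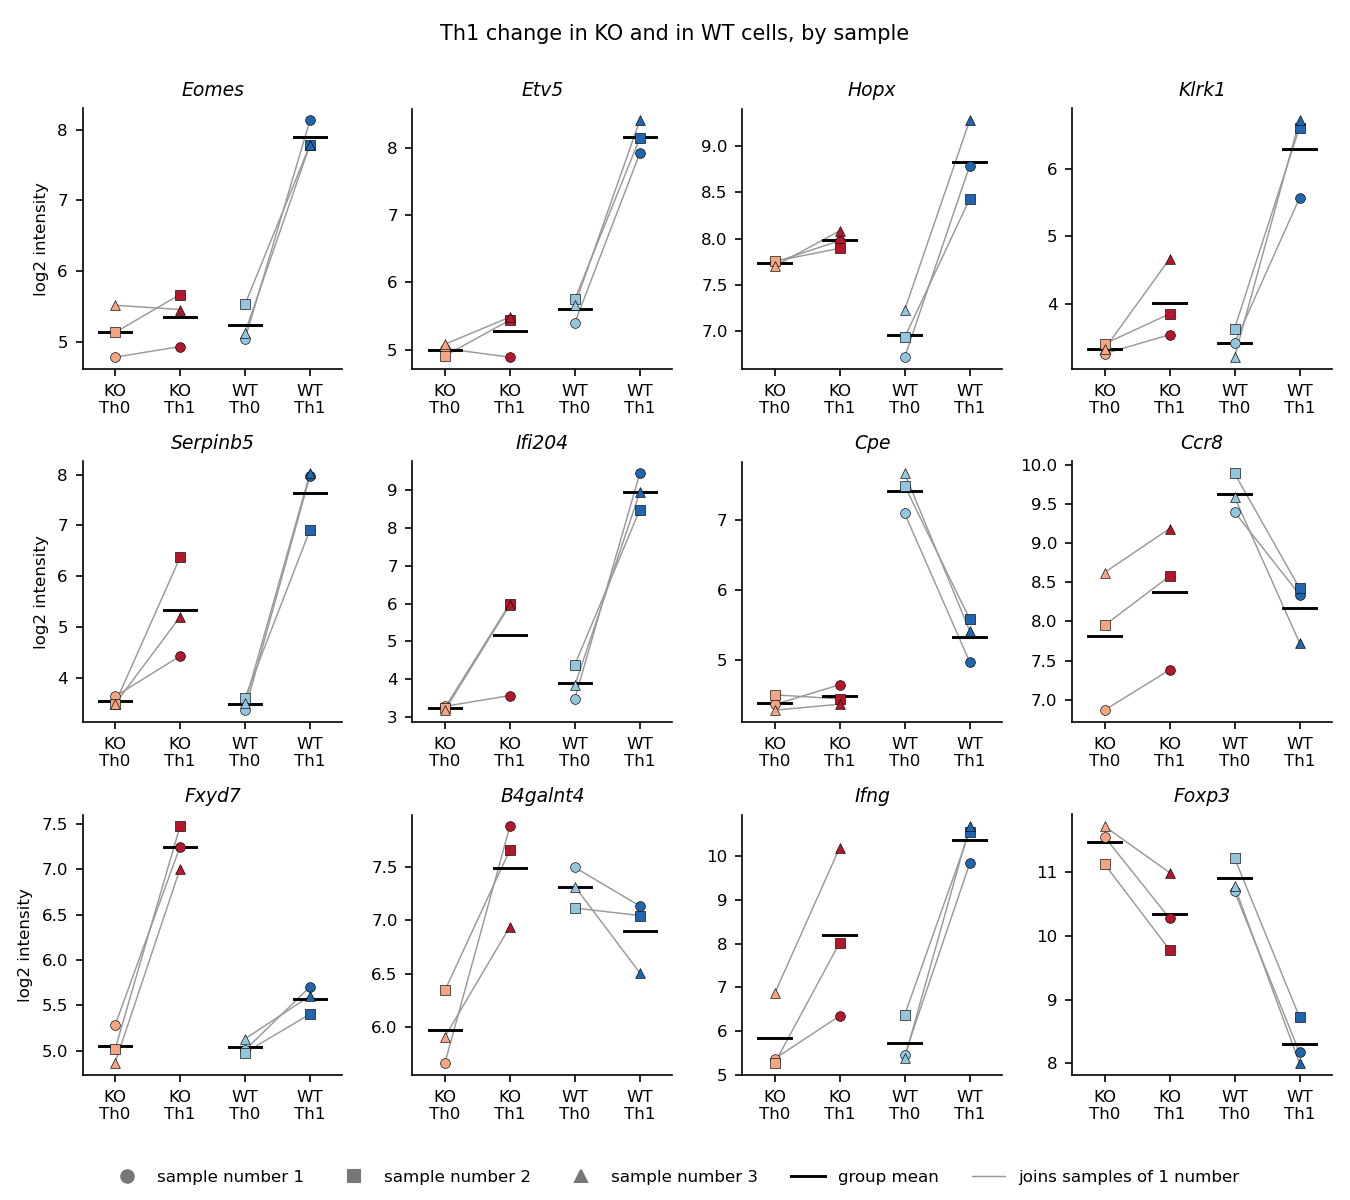
Log2 intensity of 12 genes in the 4 groups, 3 samples each, with shapes for the sample number, lines between samples of 1 number within a genotype and bars for group means. Eomes rises in WT cells (2.67) and not in KO cells (0.21), Cpe starts low in KO cells, and the KO Th1 samples of Ifng spread from 6.35 to 10.20.

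Set beside all conditions of the study, the KO Th1 samples were the one KO group with high Tbx21 and Cxcr3. Tbx21 averaged 10.27 ± 0.41 (SD, n = 3) in KO Th1, against 5.51 ± 0.15 in KO naive, 6.0 ± 0.48 in KO Th0, 5.74 ± 0.05 in KO Th2, 5.87 ± 0.23 in KO Th17 and 5.55 ± 0.18 in KO Treg cells. The 5 lower groups lay within 0.5 of each other, close to the spread of KO Th0. Cxcr3 averaged 9.53 ± 0.31 in KO Th1 and at most 6.11 ± 0.22, in KO Th17, elsewhere among KO cells. Il12rb2 was not particular to Th1, at 11.48 ± 0.20 in KO Th1 and 11.56 ± 0.14 in KO Th17, which do not differ beyond their spread. Ifng averaged 8.19 ± 1.93 in KO Th1, with a larger SD than in any other of the 12 groups, and between 5.24 and 5.83 in the other KO groups. Eomes in KO Th1 (5.35 ± 0.38) lay within the range of the other KO groups, from 4.73 ± 0.46 in Th17 to 5.62 ± 0.30 in naive cells. Foxp3 in KO Th1 (10.35 ± 0.61) lay between KO Th0 (11.47 ± 0.31) and KO naive cells (8.28 ± 0.54), below KO Treg cells (12.04 ± 0.10) and above WT Th1 (8.30 ± 0.38).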

How the data were processed

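The authors deposited 1 table of log2 values for 41345 probe sets in 36 samples, made with RMA in the oligo package under R 3.1.0, per the submitters' processing notes. RMA corrects background, normalizes by quantiles and summarizes probes, so levels between samples rest on an assumed common distribution. RNA was hybridised on an Affymetrix GeneTitan, per the labels' protocols, and genes were named from the platform's annotation. Probe sets with 1 symbol (23521; 1814 had several and 16010 none) gave 22180 genes, each read by its probe set of highest mean. Genes above the table median of 5.26 in at least 3 samples (13082) were tested with limma 3.58.1 under R 4.3.3 in 1 model of 12 groups of 3 samples (24 residual degrees of freedom, called at a Benjamini-Hochberg adjusted p under 0.05). The same-numbered Th0 and Th1 samples deviated together in the data (r of deviations from the group means 0.697, 0.602 and 0.511 in KO and 0.387, 0.33 and 0.23 in WT cells, against at most 0.034 between other numbers), so pairing was also fitted as a replicate block. The study's methods do not state the pairing.

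Genes named were the 12 highest and 12 lowest called with samples that did not overlap, 6 and 6 more with the block, 6 and 6 of the difference, and up to 4 called members of each list or more where a count turns on them. Uncharacterized and sex-linked genes and receptor segments were left out of these rankings. The comparison, members and lists were chosen with earlier results of these data known. On simulated data of 13082 genes for the KO comparison, the test called 35 of 67 changes of 0.5, 57 of 67 changes of 1 and 65 of 66 changes of 2, with 0 of 12882 unchanged genes called. That was the fit without the replicate block. Whether these shares hold for the measured KO samples was not tested. The KO Th0 and KO Th1 samples deviated more from their group means than the WT Th0 and WT Th1 samples. Promoter windows came from RefSeq, 10264 of the 13082 genes having an entry by symbol. Alternatives were other filters, scalings, priors, weights, probe set rules and sample sets. The number of arrays limits the precision.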

Additional observations from a re-analysis of the deposited data

Results flagged for a closer look

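The difference between the change in KO cells and that in WT cells (KO minus WT, log2, limma over 13082 genes) was called for each of the 18 genes below. Ifi204, Klrk1, Ctnnd2 and Olfr763 each had a mean above the table median in 1 of the 12 groups. These genes passed the low filter through the group where they are high, so calls in repeated fits are no separate support for them. The difference was -3.12 for Ifi204, -2.46 for Eomes, -2.35 for Serpinb5, -2.28 for Etv5, -2.19 for Klrk1 and -1.62 for Hopx, each with the larger rise in WT cells. It was 1.55 for Ctnnd2, 1.66 for Fxyd7, 1.94 for B4galnt4 and 2.20 for Cpe. These 10 were called in each of the 12 fits that left out 1 of the 12 samples. Ifi204 was the one of the 10 that was not called without both KO samples numbered 1 (adjusted p = 0.0641).

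The other 8 were not called in every such fit. The difference was -2.22 for Ly6a2 (adjusted p = 0.0318, and between 0.0571 and 0.107 without WT Th0 sample 1, WT Th1 sample 1, KO Th0 sample 1, WT Th0 sample 3, WT Th1 sample 3 or KO Th0 sample 3). It was -1.72 for Ly6c1, another Ly6 antigen (adjusted p = 0.0189, and between 0.0543 and 0.0724 without WT Th0 sample 1, WT Th1 sample 3 or KO Th0 sample 3). For Klrc1 it was -1.29 (adjusted p = 0.0372, and between 0.0571 and 0.182 without KO Th0 sample 1, KO Th1 sample 1, KO Th0 sample 2, KO Th1 sample 2, WT Th0 sample 2, WT Th1 sample 2, WT Th0 sample 3, WT Th1 sample 3 or KO Th0 sample 3). For Il6st, 0.53 in KO and 1.33 in WT cells gave -0.80 (adjusted p = 0.0104, and 0.054 without WT Th1 sample 3). For the IL-4 receptor chain Il4ra, -0.07 in KO and -0.62 in WT cells gave 0.54 (adjusted p = 0.0177, and between 0.0511 and 0.0614 without KO Th0 sample 1, WT Th0 sample 3, WT Th1 sample 3 or KO Th0 sample 3). Ifngr2 had 1.06 (adjusted p = 0.0245) and Ccr8 2.03 (adjusted p = 0.0361), with the ranges given above. The olfactory receptor gene Olfr763, 2.25 in KO and 0.79 in WT cells, had 1.46 (adjusted p = 0.026, and between 0.0566 and 0.0873 without WT Th1 sample 1, KO Th0 sample 2, WT Th0 sample 2, WT Th0 sample 3, WT Th1 sample 3 or KO Th1 sample 3).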

How the results depend on the processing

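Of 97 named genes called in KO cells, calls were lost for 0 under a stricter low filter or with a gene's probe sets averaged, 1 each with quantile normalization again or samples centred on their medians, 3 with a trended prior, 8 with array weights and 9 with no filter. The replicate block (numbered pairs, 12-group fit) ended none of these calls and, of the differences, gave one for Ifng and Il6ra; it moved no count of all genes over 1.5 times and changed no other call of a gene named here than those given with it above. The fit of the groups alone ended 54 of the 97 calls and 13 of 18 differences, with the block 13 and 7. The cause was not tested.

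Counts of genes higher and lower were 136 and 98 in KO cells in the fit of the groups alone, against 439 and 672. In WT cells that fit gave 890 and 910, against 711 and 706. The mean absolute deviation of a sample from its group means was 0.123 to 0.163 in KO Th0 and KO Th1. It was 0.0774 to 0.106 in WT Th0 and WT Th1. The fit to all 36 samples uses 1 spread per gene for all groups, and the part of this in the counts was not tested. In the fit of the groups alone the difference gave 4 above and 15 below, and 57 and 104 with the block. Array weights gave 48 above and 116 below for the difference and 1271 higher and 1559 lower in WT cells, where the block with the 2 groups alone gave 1076 and 1163. Without both KO samples numbered 1, 325 genes were lower in KO cells (341 with the block), and the difference gave 8 and 26 (10 and 34 with the block). With 1 sample left out, KO cells gave 258 to 633 higher and 289 to 774 lower, WT cells 435 to 576 lower, and the difference 7 to 27 above and 30 to 69 below.

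Signs turned in changes and differences that were not called with all samples. With array weights the difference was -0.0935 for Il12rb2 and 0.2498 for Gzmb. Without both samples numbered 1, with or without the block, the difference of Il12rb2 was -0.2637 and the KO change of Trim28 was -0.033. With 1 sample left out, KO changes ran from -0.1001 to 0.2583 for Trim28, -0.655 to 1.853 for Gzmb, -0.463 to 0.8935 for Mki67 and -0.2043 to 1.7053 for Il2. Differences ran from -0.0564 to 0.3021 for Trim28, -0.1296 to 0.4043 for Tbx21, -0.5558 to 0.1108 for Il12rb1, -0.3577 to 0.3526 for Il12rb2, -1.6401 to 0.8679 for Gzmb and -0.2548 to 1.1016 for Mki67. With 3 samples a group, calls rest on few arrays, and a change that was not called is not shown to be absent.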
